A study of Mus musculus with 2 samples.

Results

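The genes described here are 6 immunity-related GTPases (IRGs) of the mouse, Irgm1, Irgm2, Igtp, Iigp1, Tgtp1 and Tgtp2, chosen by name from the 32228 genes counted and found in both libraries. The libraries hold single-cell RNA counts of CD45+ 7-AAD- cells, that is, living immune cells sorted from the lamina propria of the colon. Both come from C57BL/6 mice, whose age is 8 to 10 weeks by the labels and 8 to 12 weeks by the study's methods, and which drank 2.5% dextran sulfate sodium (DSS) for 7 or 8 days to induce colitis. The libraries are labelled WT and Ring1AKO, the latter for mice without Ring1 (Ring1A), a Polycomb protein that places ubiquitin on histone H2A, and each pools the cells of 5 mice. Below, WT and Ring1AKO stand for these labelled libraries. The methods describe sex-matched littermates and no restriction of the knockout to a tissue. With 1 library for each genotype, genotype and library cannot be told apart, so no test compares them and each interval given below is a 95% interval that covers counting error only.

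IRGs are switched on by interferon-gamma, which acts through its receptor and the kinases Jak1 and Jak2, and partly through the transcription factor Irf1. Regulatory IRGs (Irgm1, Irgm2 and Igtp, also called Irgm3) sit on the cell's own membranes and keep the effector IRGs inactive there. Effector IRGs (Iigp1, also called Irga6, and Tgtp1 and Tgtp2, also called Irgb6) load onto vacuoles that hold parasites or bacteria and disrupt them, with help from guanylate-binding proteins and from the proteins that conjugate LC3 and GABARAP in autophagy. Mice that lack Irgm1 are known to be more sensitive to DSS.

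Irgm1, Irgm2, Igtp, Tgtp1 and Tgtp2 lie on chromosome 11 of GRCm38, and the promoter sequences are shown because interferon-gamma acts through them. In the GENCODE annotation, Irgm1 (ENSMUSG00000046879) runs from 48861968 to 48871683 on the minus strand, and Tgtp1 (ENSMUSG00000078922, 48985327 to 48994172) and Tgtp2 (ENSMUSG00000078921, 49057194 to 49064206) follow it on the same strand. Igtp (ENSMUSG00000078853, 58199556 to 58207591) and Irgm2 (ENSMUSG00000069874, 58199618 to 58222782) share a stretch on the plus strand. RefSeq promoter windows of GRCm38.p6, from 250 bases before to 50 bases after a gene's start, were searched on both strands for the interferon-stimulated response element core, GAAANNGAAA (ISRE), and the gamma-activated site, TTCNNNGAA (GAS), which reads alike on both strands. Capitals mark the matches in the stretches that hold them, each written 5′ to 3′ on the gene's strand.
Irgm1, chr11:48871415-48871480, minus: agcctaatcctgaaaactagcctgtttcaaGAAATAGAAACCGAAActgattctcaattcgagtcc
Irgm2, chr11:58214883-58214942, plus: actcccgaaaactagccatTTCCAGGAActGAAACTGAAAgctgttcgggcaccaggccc
Igtp, chr11:58199492-58199551, plus: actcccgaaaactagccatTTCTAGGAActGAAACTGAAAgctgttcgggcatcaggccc
Tgtp1, chr11:48992294-48992353, minus: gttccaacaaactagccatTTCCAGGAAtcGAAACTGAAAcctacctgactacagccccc
Tgtp2, chr11:49064253-49064312, minus: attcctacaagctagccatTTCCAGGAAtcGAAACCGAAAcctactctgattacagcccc

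Irgm2, Igtp, Tgtp1 and Tgtp2 each held 1 GAS match followed after 2 bases by 1 ISRE match. The pair began 75 bases before the start of Irgm2, 45 before that of Igtp, 88 before that of Tgtp1 and 81 before that of Tgtp2. Irgm1 held 2 ISRE matches that overlap by 4 bases, 30 to 15 bases before its start, and no GAS match. The RefSeq start of Irgm2 lies past the stretch that Irgm2 shares with Igtp. Of all 32851 promoter windows, 3.44% held an ISRE match, 8.30% a GAS match and 0.454% both. Of the related IRG genes, only 9930111J21Rik1, 9930111J21Rik2 and Irgq were looked up. 9930111J21Rik1 held an ISRE match 26 bases past its start, and 9930111J21Rik2 and Irgq held neither motif. Matches for Iigp1 are not reported here. A match is a run of letters and does not show that a factor binds there.

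**Figure D1:**
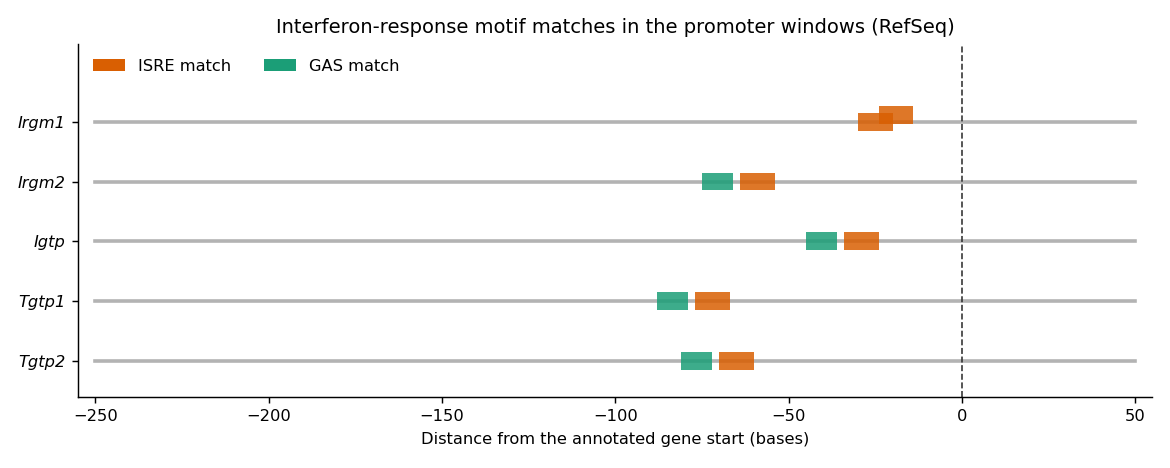
Motif matches in the RefSeq promoter windows of 5 IRG genes, by distance in bases from the annotated start (dashed line at 0, grey line the window searched). Orange boxes are ISRE matches and green boxes GAS matches. The 4 genes other than Irgm1 hold a GAS match with an ISRE match next to it, between 88 and 25 bases before the start.

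Barcodes with at least 1000 UMIs (unique molecular identifiers, 1 for each RNA molecule counted), at least 500 genes and under 5% mitochondrial UMIs were taken as cells, which gave 6005 WT cells (median 6354 UMIs) and 7918 Ring1AKO cells (median 5035), and 11 barcodes passed in both libraries. Classes were gated by 1 gene each, Cd79a for B cells, Jchain for plasma cells, Cd3e for T cells, Ncr1 for NK cells, Lyz2 for myeloid cells, S100a8 for neutrophils and Flt3 for dendritic cells. The gates held 1112 and 3321 B, 569 and 553 plasma, 1514 and 1599 T, 120 and 81 NK, 926 and 360 myeloid, 186 and 214 neutrophil, and 230 and 200 dendritic cells in WT and Ring1AKO, in that order, and 413 and 814 barcodes that passed more than 1 gate were left out. Other markers of plasma cells, T cells, NK cells, neutrophils and dendritic cells were highest in their own gate in both libraries. The B list was highest in the dendritic gate through Cd74, while Cd79b, Ms4a1 and Bank1 were highest in the B gate, and the myeloid list was highest in the WT plasma gate through Ly6c2, while Csf1r, Fcgr1, C1qa, Cd68 and Adgre1 were highest in the myeloid gate. Il22, a cytokine gene of group 3 innate lymphoid cells, had 1588 counts per 1000000 UMIs (CPM) in the WT NK gate and 4496 in the Ring1AKO one, so this gate also held innate lymphoid cells. Ring1 itself had 828 and 816 UMIs, 13.4 and 11.8 CPM, and a count near the 3′ end does not show whether the transcript is disrupted upstream.

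Each class is given a level in CPM, its UMIs of a gene over all its UMIs. T cells had the highest summed level of the 6 genes in both libraries, 237 CPM in WT and 152 in Ring1AKO. NK cells came next by the mean of both libraries, at 143 and 141 CPM, below both values of T cells. In Ring1AKO, though, the interval of NK cells (111.8 to 176.0) held that of T cells (144.9 to 159.5), so these did not differ beyond counting error. Myeloid cells had 236 and 26.2 CPM, neutrophils 188 and 24.5, and dendritic cells 139 and 22.4. B cells had 100.1 and 20.1 CPM and plasma cells, whose RNA is dominated by immunoglobulin, 36.2 and 13.9. From myeloid cells down the order, the range over the libraries of each class overlapped that of the class above it. That range holds the difference between the libraries, and dendritic, B and plasma cells took ranks 5, 6 and 7 in both. Within each library the intervals of B cells (92.2 to 108.6 in WT, 18.0 to 22.4 in Ring1AKO) and plasma cells (33.4 to 39.2, 12.2 to 15.8) did not overlap. In WT, myeloid cells stood level with T cells, a log2 ratio of T over myeloid of 0.00 that ran from -0.18 to 0.32 under other settings, whereas in Ring1AKO T cells were 2.52 higher on the log2 scale.

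**Figure D2:**
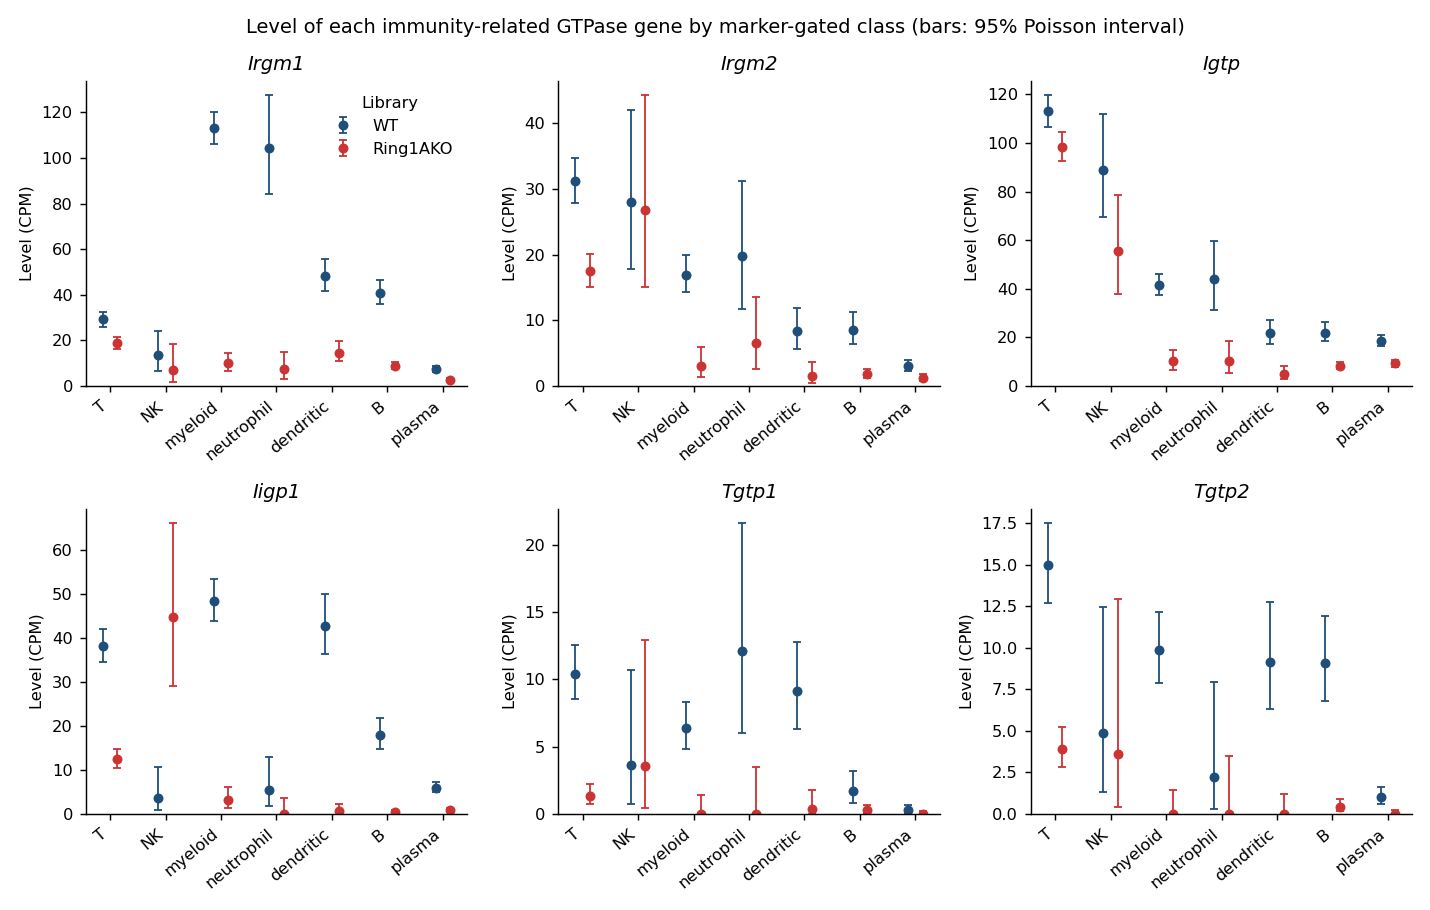
Level of each of the 6 genes in CPM in 7 marker-gated classes, with a scale of its own for each gene, from 0. Blue points are WT and red points Ring1AKO, with 95% Poisson intervals that cover counting error only. Red points sit below blue points throughout, except for Iigp1 in the NK class, where the red point is higher. In the NK class the intervals of the other 5 genes overlap between the libraries.

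Between the libraries, the summed level was lower in Ring1AKO in 6 of the 7 classes and alike in NK cells. The log2 ratio, Ring1AKO over WT with 1 UMI added to each sum, was -3.15 (-3.54 to -2.83) in myeloid cells, -2.89 (-3.59 to -2.34) in neutrophils and -2.62 (-3.02 to -2.28) in dendritic cells. It was -2.31 (-2.51 to -2.12) in B cells and -1.38 (-1.60 to -1.16) in plasma cells. In T cells it was -0.64 (-0.73 to -0.55), and in NK cells -0.01 (-0.44 to 0.41). The median log2 ratio of all genes with at least 20 UMIs in a class was itself below 0, at -0.37 in plasma cells, -0.28 in neutrophils, -0.19 in B cells and -0.18 in dendritic cells, and closer to 0 than -0.1 in the other classes. Relative to it, the log2 ratio of the summed level was -3.06 in myeloid cells, -2.61 in neutrophils, -2.44 in dendritic cells, -2.12 in B cells and -1.01 in plasma cells.

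Counted gene by gene, all 6 members were at least 2-fold lower in Ring1AKO in myeloid cells, where 5.72% of all genes with at least 20 UMIs were, and all 6 had that many UMIs. The same count was 6 of 6 in dendritic cells against 7.08% of genes, with all 6 past the UMI minimum, and 6 of 6 in B cells against 7.38%, with 5 past it. In neutrophils it was 6 of 6 against 14.7%, with 3 past the minimum. With genes without a UMI in Ring1AKO set at a floor of 3 UMIs, it was 4. Tgtp2, at 2 UMIs and 0, was given no fold there. In plasma cells the count was 5 of 6 against 10.8%, with 4 past the minimum, and 4 with that floor. T cells had 3 of 6 against 4.95%, all 6 past the minimum, and NK cells 0 of 6 against 6.1%, with 3 past it. In the other direction, 2.14% of genes were at least 2-fold higher in Ring1AKO in B, 1.39% in plasma, 1.49% in T, 3.25% in NK, 4.32% in myeloid, 2.63% in neutrophil and 1.62% in dendritic cells, and of the members Iigp1 was in NK cells and no other in any class. The median log2 ratio of the members, with genes at 0 set at the floor of 3 UMIs, was -2.80 in myeloid, -2.71 in dendritic, -2.42 in B, -1.99 in neutrophil, -1.40 in plasma, -1.23 in T and -0.18 in NK cells.

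**Figure D3:**
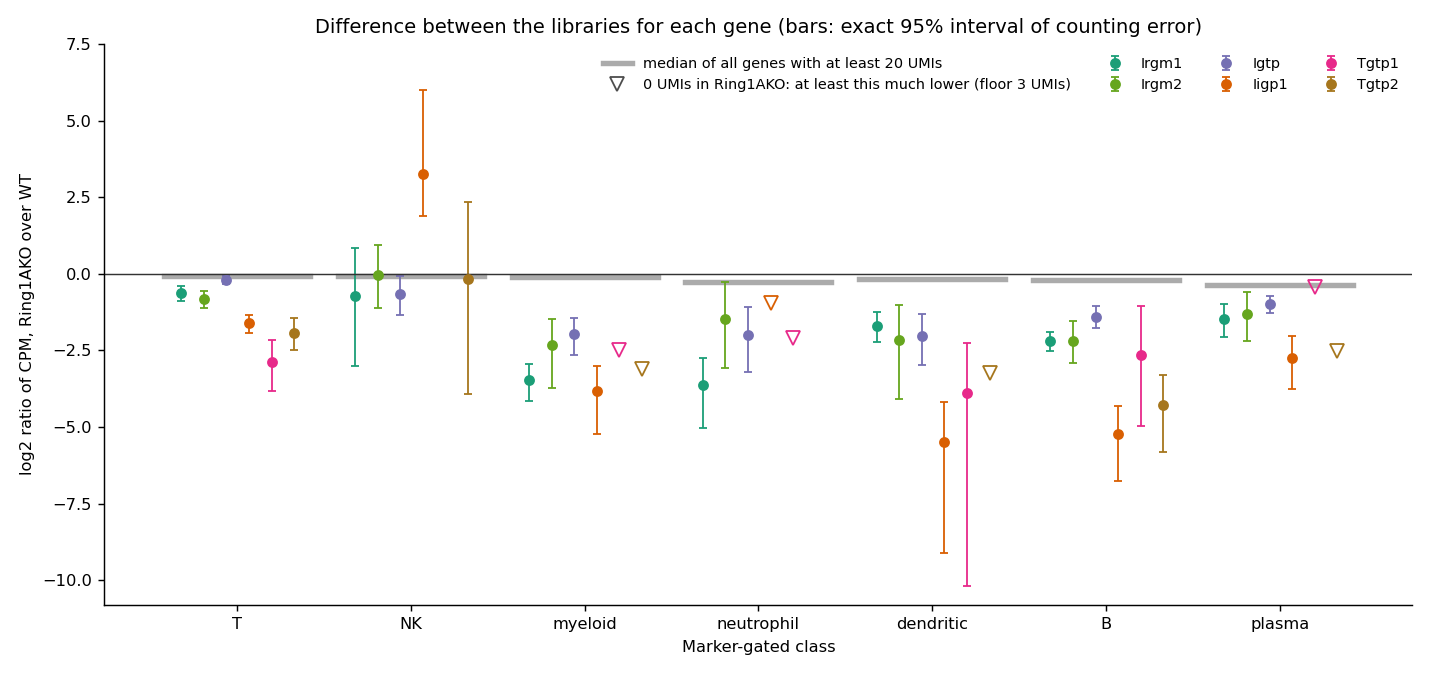
log2 ratio of CPM, Ring1AKO over WT, for each gene (colours) in each class, with exact 95% intervals of counting error. Open triangles are genes without a UMI in Ring1AKO, drawn at the drop to a floor of 3 UMIs, which leaves out the counting error of WT. Grey lines are the median of all genes with at least 20 UMIs, and genes at or under 3 UMIs in both libraries are left out. Members lie below the grey line in each class except the NK class, where Iigp1 and Irgm2 lie above it. The effectors lie lower than the regulators in T cells.

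Irgm1, the regulator found on the Golgi, mitochondria and lysosomes, had its highest WT levels in myeloid cells and neutrophils. Myeloid cells held 977 UMIs of it in WT and 26 in Ring1AKO, 113 and 9.87 CPM, a log2 ratio of -3.46 (-4.14 to -2.96). Neutrophils held 95 and 8 UMIs, 104 and 7.54 CPM, a log2 ratio of -3.64 (-5.04 to -2.75). In both phagocyte classes the libraries lay far apart, and with Irgm1 the order of the classes turned with the library, since T cells took rank 5 of 7 in WT and rank 1 in Ring1AKO. Dendritic cells had 48.3 and 14.7 CPM, B cells 40.9 and 8.86, and plasma cells 7.32 and 2.57. In T cells it had 29.2 and 18.7 CPM, a log2 ratio of -0.64 (-0.90 to -0.38), and in NK cells 13.4 and 7.15 CPM from 11 and 4 UMIs, with an interval from -3.01 to 0.85 that holds 0.

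Irgm2 and Igtp, the other regulators, were highest in lymphocytes with T or NK identity. Igtp had 113 CPM in WT T cells and 98.3 in Ring1AKO T cells, from 1185 and 1092 UMIs, a log2 ratio of -0.20 (-0.32 to -0.08) that is the smallest of the 6 genes in T cells. NK cells had 89.0 and 55.4 CPM of Igtp from 73 and 31 UMIs, a log2 ratio of -0.66 (-1.34 to -0.06), the one member whose interval lay below 0 in NK cells. Neutrophils, next in order, had 43.9 and 10.4 CPM, below both NK values. Myeloid cells had 41.4 and 10.3 CPM of it, a log2 ratio of -1.97 (-2.64 to -1.45). Dendritic cells had 21.7 and 5.11 CPM, a log2 ratio of -2.02, and B cells 22.0 and 8.32 CPM, a log2 ratio of -1.40 (-1.76 to -1.04). Plasma cells had 18.6 and 9.32 CPM of Igtp, a log2 ratio of -0.996 (-1.29 to -0.72). Irgm2 had 31.2 and 17.5 CPM in T cells, a log2 ratio of -0.83 (-1.10 to -0.58), and 28.0 and 26.8 CPM in NK cells, where the interval from -1.11 to 0.94 holds 0. In the other classes Irgm2 was lower, between 3.06 and 19.8 CPM in WT and between 1.19 and 6.60 in Ring1AKO. Igtp and Irgm2 overlap in the annotation on the same strand, and reads in any exon they share could not be given to either.

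Iigp1 (ENSMUSG00000054072), an effector that coats parasite vacuoles, is the member away from chromosome 11, at 60376027 to 60392634 on the plus strand of chromosome 18. WT cells held 3005 UMIs of it in all and Ring1AKO cells 472. Myeloid cells held 418 and 8 UMIs, 48.4 and 3.04 CPM, a log2 ratio of -3.83 (-5.21 to -3.00). Dendritic cells held 159 and 2 UMIs, 42.7 and 0.639 CPM, a log2 ratio of -5.48 with an interval from -9.12 to -4.18, where free RNA could account for 69.2% of the 2 UMIs. That ratio was -3.97 with at most 3 UMIs counted for each cell, -3.09 with plain gates and -1.80 with gates at 2 times the limits. T cells, with 399 and 137 UMIs, had 38.1 and 12.3 CPM and a log2 ratio of -1.62 (-1.92 to -1.34). At the main gates the libraries thus lay closer in T cells than in either of those classes. The dendritic value of -1.80, with gates at 2 times the limits, lay within this T cell interval. Neutrophils held 5 UMIs and 0, 1.94-fold lower against a floor of 3 UMIs.

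The UMIs of Iigp1 were gathered in few cells. Of the WT B cells, 2 barcodes held 77 of 104 UMIs, with 43 and 34 each, and these barcodes also held 186 and 167 UMIs of the fibroblast genes Col1a1, Col3a1 and Dcn. The Ring1AKO B cells held 7 UMIs of Iigp1, 0.422 CPM against 17.9, a log2 ratio of -5.22, and -3.46 without cells with at least 10 fibroblast-gene UMIs. Among WT plasma cells, 1 barcode held 71 of 99 UMIs, beside 128 fibroblast-gene UMIs, and the log2 ratio moved from -2.74, at 5.94 and 0.836 CPM, to -1.06 without such cells. Fibroblast-gene levels summed to 74.5 and 32.4 CPM in the B gate, 21.1 and 6.75 in T, 28.4 and 17.6 in dendritic and 9.61 and 4.94 in myeloid cells, WT first, and all 3 genes were at 0 in NK cells. In WT dendritic cells, 10 of 230 cells held 132 of the 159 UMIs, with 44 in 1 barcode that held no fibroblast-gene UMI. Myeloid and T cells kept log2 ratios of -3.69 and -1.51 without such cells. In WT T cells, 133 of 1514 cells held the 399 UMIs, 3.00 UMIs for each positive cell, against 2.09 for Igtp, found in 566 cells.

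Tgtp1 and Tgtp2 encode nearly the same effector protein, and the last 500 bases of their transcripts, where 3′ reads fall, shared all 441 words of 60 bases, so their counts are uncertain one by one. Tgtp1 also overlaps Gm12185 on its own strand and Olfr56 on the other, and Tgtp2 overlaps Olfr56. Myeloid cells held 55 UMIs of Tgtp1 and 85 of Tgtp2 in WT and 0 of both in Ring1AKO. Against a floor of 3 UMIs these were 5.59-fold and 8.64-fold lower. Dendritic cells held 34 of each in WT and 1 and 0 in Ring1AKO. The log2 ratio there was -3.88 (-10.2 to -2.26) for Tgtp1, and Tgtp2 was 9.52-fold lower against that floor. T cells held 109 and 15 UMIs of Tgtp1, a log2 ratio of -2.86 (-3.83 to -2.16), and 157 and 43 of Tgtp2, a log2 ratio of -1.93 (-2.47 to -1.46). In the T gate as a whole the intervals of all 3 effectors lay below -1.34 and those of all 3 regulators above -1.10. In each T cell subset described below, some effector and regulator intervals overlapped. In cells with a Foxp3 UMI, Irgm2 had a log2 ratio of -1.52 (-2.06 to -1.02) and Iigp1 one of -1.99 (-2.41 to -1.61). B cells held 53 and 7 UMIs of Tgtp2, 9.10 and 0.422 CPM, and 10 and 4 of Tgtp1. In NK cells neither gene passed 4 UMIs in either library.

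NK cells stood apart through Iigp1, with 3 UMIs in WT and 25 in Ring1AKO, 3.66 and 44.7 CPM, a log2 ratio of 3.25 (1.90 to 5.98). Of the 25 UMIs, 20 lay in 1 barcode, which also held 245 UMIs of Il22 and 62 of Ccr7. Only 3 of the 81 Ring1AKO cells held a UMI of Iigp1. With at most 3 UMIs counted for each cell and gene, the log2 ratio was 1.55.

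Shares of cells with a UMI of any member gave the same order of classes as the CPM within each library, and count each cell once. Each cell was thinned to 2000 UMIs, since depth differed between classes, and shallower cells were left out. In the T gate, 28.9% (26.6 to 31.2) of 1511 WT cells and 22.3% (20.3 to 24.5) of 1585 Ring1AKO cells held one, against 54.2% and 44.3% before thinning. NK cells had 21.01% and 20.99%, with intervals from 14.1 to 29.4 and from 12.7 to 31.5. Myeloid cells had 24.7% (21.8 to 27.7) and 6.21% (3.83 to 9.43), neutrophils 22.9% (16.9 to 29.8) and 4.64% (2.14 to 8.62), and dendritic cells 16.3% (11.7 to 21.8) and 4.55% (2.10 to 8.45). B cells had 13.4% (11.5 to 15.6) and 3.50% (2.90 to 4.19). Plasma cells, whose thinned UMIs are mostly immunoglobulin, had 6.02% and 2.56%, with intervals that overlap between 4.20 and 4.34. The intervals of the libraries did not overlap in the other classes except NK cells. Free RNA was estimated from barcodes with under 100 UMIs, which held 167 CPM of the 6 genes in WT and 64.7 in Ring1AKO. Its upper estimate was 2.02% to 5.94% of the members' UMIs in the 7 WT classes and 1.66% to 19.0% in the Ring1AKO ones. For Iigp1 in Ring1AKO it came to 128% of the 7 UMIs in B cells and 69.2% of the 2 in dendritic cells, and these levels were read as background. In Ring1AKO plasma cells it came to 61.1% of 14 UMIs, of which 12 lay in 1 barcode.

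**Figure D4:**
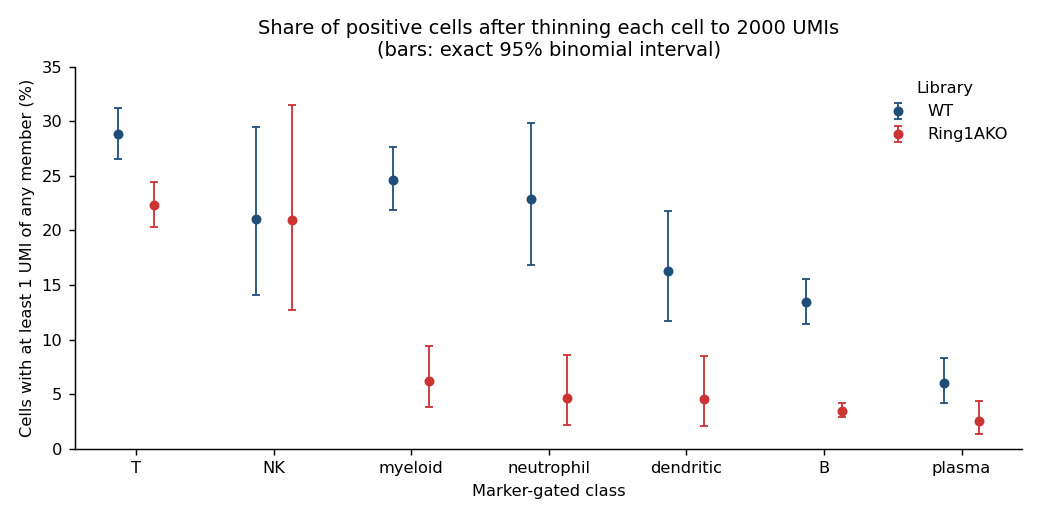
Share of cells with at least 1 UMI of any of the 6 genes in each class, after each cell was thinned to 2000 UMIs, with exact 95% binomial intervals. Blue points are WT and red points Ring1AKO. The libraries differ beyond counting error in T, myeloid, neutrophil, dendritic and B cells, and NK cells sit at 21.01% and 20.99%.

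Within the T gate, cells with a UMI of Foxp3, the factor of regulatory T cells, had the highest levels. Their summed level was 495 CPM in 209 WT cells and 222 in 219 Ring1AKO cells, a log2 ratio of -1.15 (-1.32 to -0.99). Of these, Igtp had 223 and 136 CPM and Iigp1 127 and 31.7 CPM, so most of the difference lay in these 2 genes. Other cells with Cd4 and without Cd8a had 281 and 170 CPM, a log2 ratio of -0.72 (-0.91 to -0.54). Cells with Cd8a and without Cd4 or Foxp3 had 147 and 112 CPM, a log2 ratio of -0.40 (-0.59 to -0.21). Cells with Trdc, a gamma-delta T cell receptor gene, and without Cd4 and Cd8a had 146 and 114 CPM. Their interval, from -0.81 to 0.10, holds 0. The intervals of Igtp held 0 in these last subsets, at 71.1 and 73.7 CPM in Cd8a cells (log2 ratio 0.05, -0.20 to 0.31) and 48.1 and 74.1 in Trdc cells (0.59, -0.07 to 1.37). Iigp1, by contrast, had 25 and 4 UMIs in Cd8a cells and 5 and 0 in Trdc cells. Foxp3 cells made up 13.8% and 13.7% of the T gate, Cd8a cells 31.0% and 34.8% and Cd4 cells 26.4% and 20.9%. Trdc cells made up 4.69% (3.68 to 5.88) in WT and 8.82% (7.47 to 10.3) in Ring1AKO.

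Among myeloid cells the difference was present in each subset, while the subsets changed in number. Cells with Ly6c2, a monocyte gene, and under 2 UMIs of C1qa numbered 667 and 116 and had 268 and 34.6 CPM of the 6 genes, a log2 ratio of -2.91 (-3.48 to -2.47). Cells with at least 2 UMIs of C1qa, a complement gene of macrophages, numbered 181 and 141 and had 155 and 29.5 CPM, a log2 ratio of -2.34 (-3.05 to -1.80). The remaining 78 and 103 cells had 71.7 and 11.6 CPM, a log2 ratio of -2.51 (-3.85 to -1.56). Cxcl9, a chemokine gene that interferon-gamma induces, had a UMI in 245 of the 926 WT myeloid cells and in 6 of the 360 Ring1AKO ones. The 245 cells had 504 CPM of the 6 genes, with 220 of Irgm1 and 134 of Iigp1, and the 6 cells held 3 UMIs in all. Cells without a Cxcl9 UMI still had 126 and 25.5 CPM, a log2 ratio of -2.28 (-2.69 to -1.94).

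**Figure D5:**
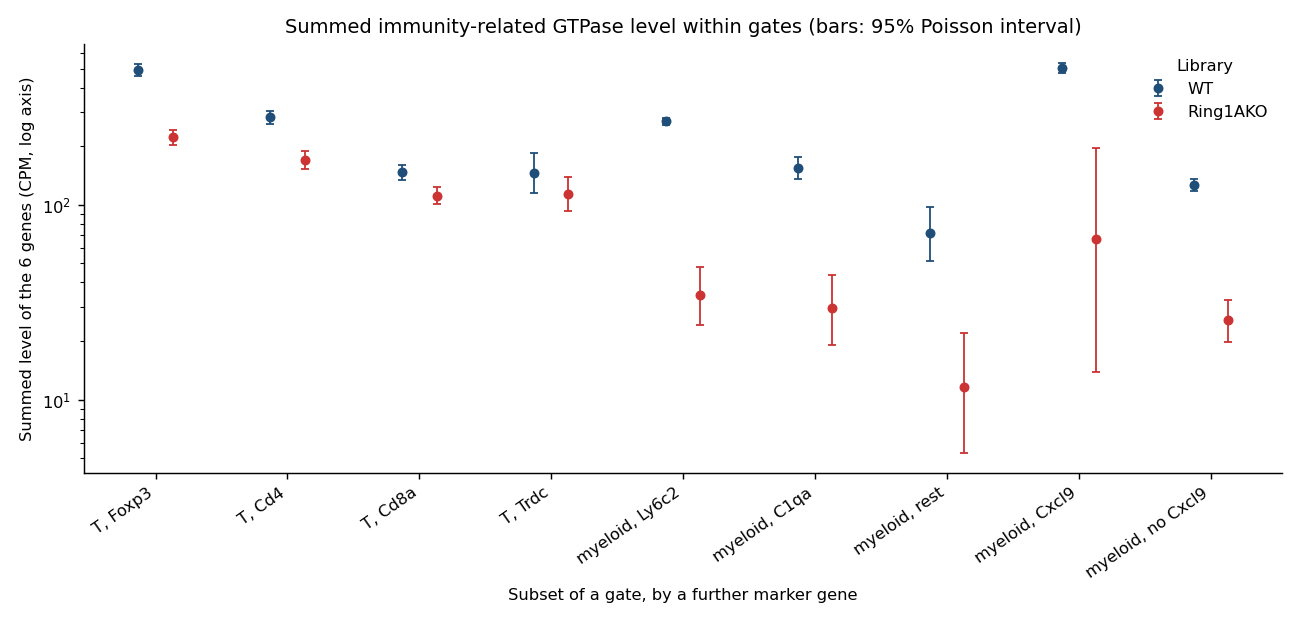
Summed level of the 6 genes in CPM, on a log axis, in subsets of the T and myeloid gates set by a further marker gene. Blue points are WT and red points Ring1AKO, with 95% Poisson intervals of counting error. The log2 ratio, Ring1AKO over WT, ran from -1.15 to -0.36 in the T subsets and from -2.91 to -2.28 in the myeloid subsets with over 6 cells in both libraries.

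Over all cells together, the 6 genes had 164 CPM in WT and 52.3 in Ring1AKO, a log2 ratio of -1.65 (-1.70 to -1.59). The share of UMIs from each class also differed, since B cells gave 9.41% of the UMIs in WT and 24.0% in Ring1AKO and myeloid cells 13.96% and 3.81%. For the next 2 values, barcodes in more than 1 gate and barcodes in no gate were each taken as a further class. The barcodes in no gate held 27.4% of the members' UMIs in WT. Of these 2779 UMIs, 1698 lay in 78 barcodes with fibroblast or endothelium marks, described in a later section. In Ring1AKO 290 of 575 lay in 59 such barcodes, so the values over all cells include them. With the WT levels of each class kept and the class shares of Ring1AKO put in their place, the log2 ratio would be -0.24. With the class shares of WT kept and the levels of Ring1AKO put in their place, it would be -1.52, which also takes in changes of the cell mix within a class. By gene the second value ran from -0.63 for Igtp to -3.28 for Tgtp1. T cells held 24.5% of the members' UMIs in WT and 46.8% in Ring1AKO.

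Other genes of the IRG family and of the interferon-gamma pathway were counted the same way, among genes with at least 20 UMIs in the class. Of all such genes, 5.72% were at least 2-fold lower in Ring1AKO in myeloid cells and 4.95% in T cells. Of 8 further IRG genes found in the libraries, 6 had that many UMIs in myeloid cells and 4 were at least 2-fold lower in Ring1AKO, and 5 did in T cells, of which 3 were. 9930111J21Rik2, the best counted, had 33.2 and 7.60 CPM in myeloid, 80.5 and 52.0 in B and 45.1 and 30.7 in T cells. Irgq, a distant IRG relative, had 5.21 and 6.46 CPM in myeloid and 5.44 and 6.48 in T cells. Of 10 guanylate-binding protein genes found, 9 were counted in myeloid cells and all 9 were at least 2-fold lower, with a median log2 ratio of -2.55, whereas in T cells 2 of 10 were. Gbp2 had 916 and 33.4 CPM in myeloid and 73.6 and 39.9 in T cells.

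Of the 13 genes of the interferon-gamma chain, 8 were at least 2-fold lower in myeloid cells, 6 in B, 4 in plasma and 1 in T cells. The count was 6 of 11 in neutrophils, 3 of 12 in dendritic and 2 of 11 in NK cells. None was 2-fold higher in these classes. Of all genes, 5.72% were at least 2-fold lower in myeloid, 7.38% in B, 10.8% in plasma and 4.95% in T cells. The share was 14.7% in neutrophils, 7.08% in dendritic and 6.1% in NK cells, so the T cell count of 1 lay near its share. The receptor gene Ifngr1 had 258 and 207 CPM in myeloid cells and 1039 and 1001 in T cells. Irf1 had 377 and 96.8 CPM in myeloid and 161 and 115 in T cells. Ifng itself had 207 and 144 CPM in T and 919 and 272 in NK cells. Of 10 genes of the type I interferon response, 8 were at least 2-fold lower in myeloid cells and 2 of 9 in T cells. In autophagy conjugation, which IRG loading needs, 0 of 10 genes were 2-fold lower in myeloid, T or B cells, with medians of 0.10, 0.16 and 0.06. Atg5 had 35.1 and 30.8 CPM in myeloid cells and Map1lc3b 220 and 228.

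Of 4884 genes compared over the 14 class and library profiles, Ifi47 followed the summed members most closely, with a Pearson r of 0.95 on log2(CPM + 10). Ifi47 is itself an IRG (Irgd), outside the list of members. Gbp7 followed at 0.92, then Xaf1, an interferon-induced gene, at 0.88, Lars2, a mitochondrial leucyl-tRNA synthetase gene, at 0.87, and Dtx3l, an interferon-induced ubiquitin ligase gene, at 0.85. These are descriptions over 14 profiles that share libraries and depth. Like the members, Ifi47 was lower in Ring1AKO in myeloid cells, at 101 and 12.5 CPM, neutrophils, at 80.2 and 8.48, and B cells, at 30.4 and 8.08. Unlike them, it was not lower in T cells, at 54.6 and 61.7 CPM. Among the members, Irgm2 and Igtp were most alike (r 0.94) and Irgm1 and Igtp least (0.34).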

How the data were processed

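Cells of 1 WT and 1 Ring1AKO library were profiled with 10x Genomics 3′ chemistry, and the authors deposited unfiltered UMI counts for each gene and barcode (unit counts, no normalization). The methods name Cell Ranger 3.0.1 and mm10, the submitters' processing notes Cell Ranger 6.0.2, Seurat and mm39, and the matrix header format 4 of Cell Ranger, and coordinates here are GRCm38 (GENCODE vM21, which holds 32099 of the 32228 gene identifiers).

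Cells were barcodes with at least 1000 UMIs, 500 genes and under 5% mitochondrial UMIs. Gates were Jchain at 0.5% of UMIs, S100a8 at 0.5%, Lyz2 at 0.2%, Cd79a at 2 UMIs, and Cd3e, Ncr1 and Flt3 at 1 UMI. Plasma went before B, neutrophil before myeloid, myeloid before dendritic, and T before NK. Other barcodes in more than 1 gate were left out, which was the treatment of doublets, and 935 and 776 barcodes passed no gate. Each library held 74414511 (WT) and 81862096 (Ring1AKO) UMIs, of which the cells held 61864835 and 69029466.

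Levels are summed UMIs scaled to CPM with exact Poisson intervals, ratios carry exact conditional intervals, and shares exact Clopper-Pearson intervals. UMIs correct for PCR copies, and intervals cover counting error only. A fold against 0 UMIs was taken against a floor of 3 UMIs in the class. The 6 genes, the gene lists and the rules were chosen with earlier results of these data known. Genes named are the members, other IRG genes in the features, up to 4 of each list, and the 5 genes most like the summed members with at least 100 UMIs and 50 CPM in 1 class. Ring1 was named as a check of the label, which its counts near the 3′ end could not settle. Gbp2 stands for its list, and the barcodes named for single cells were chosen after their values were seen. Other IRG genes of the list (6 of 14 names) were not analysed here. Values of some listed genes are not reported here.

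Ratios were tested on simulated data with a 4-fold change. The simulated sums were drawn from a Poisson distribution, as the intervals assume, so UMIs gathered in few cells were not covered. In the T gate, 99.5% of 199 changed genes among 11758 passed 2-fold and 95.8% of intervals held the truth. In the myeloid gate these were 98.5% of 197 among 9776, and 96.3%. Python 3.11.15, numpy 2.4.6, scipy 1.17.1, pandas 2.3.3 and matplotlib 3.10.9 were used. Alternatives to gates, cell filters, scaling, free RNA, members, thinning and pseudocounts were tried, 12 planned for the ratios and 3 added after the data were seen.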

Additional observations from a re-analysis of the deposited data

Results flagged for a closer look

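Iigp1 in NK cells was singled out because its difference between the libraries ran the other way than in the 6 other classes. Its log2 ratio, Ring1AKO over WT, was 3.25 in NK cells and below 0 in T, B, plasma, myeloid, neutrophil and dendritic cells, and the difference was not tested. In NK cells it fell to 0.23 with plain gates, 0.08 with gates at 2 times the limits and 1.55 with at most 3 UMIs per cell. The single barcode that held 20 of the 25 UMIs is described above.

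Most Iigp1 UMIs of the library labelled WT lay outside the gates, in barcodes that enter the values over all cells but no class above. Ungated barcodes held 1643 of the 3005 UMIs (54.7%) labelled WT and 221 of the 472 (46.8%) labelled Ring1AKO. A fibroblast mark was at least 10 UMIs of Col1a1, Col3a1 and Dcn together, and an endothelium mark a UMI of both Pecam1 and Cdh5. Of the ungated barcodes, 78 labelled WT and 59 labelled Ring1AKO carried such a mark. Their Iigp1 level was 2221 CPM (2105 to 2340) and 403 CPM (349 to 463), far above the 48.4 and 12.3 CPM that were the highest in the gated classes other than NK. Irgm1 had 195 and 117 CPM there, Igtp 128 and 40.9, Irgm2 92.5 and 20.5, and Tgtp2 35 and 3 UMIs. The sort was for CD45+ cells, and Ptprc, the gene of CD45, had a UMI in 15.4% and 15.3% of these barcodes, at 90.9 and 61.4 CPM, against 99.4% and 97.3% of T cells. The 67 and 43 barcodes with fibroblast genes had 2322 and 369 CPM of Iigp1, and the 11 and 16 with endothelium genes 1380 and 522. How these barcodes passed the sort was not tested.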

How the results depend on the processing

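No paired analysis was possible because each genotype had 1 library. The members' log2 ratios kept their sign in 601 of 608 values over the members, classes and alternatives, and the other 7 were in NK cells. The alternatives that count at most 3 UMIs per cell and member, leave out cells with fibroblast markers, or put B before dendritic were chosen after seeing the data. With plain overlapping gates of 1 UMI, which admit cells with free RNA of a marker, the log2 ratio of the summed members was -1.39 in B, -1.65 in plasma, -0.77 in T, -0.73 in NK, -2.23 in myeloid, -1.60 in neutrophil and -2.04 in dendritic cells. T over myeloid was then 0.32 in WT and 1.78 in Ring1AKO. With gates at 2 times the limits the ratio was -2.01 in B and -1.75 in dendritic cells, and T over myeloid in WT -0.18. With at most 3 UMIs per cell and member it was -2.11 in B, -1.02 in plasma, -2.72 in myeloid and -2.19 in dendritic cells, and T over myeloid in WT 0.16. It was -2.09 in B cells without cells with fibroblast markers, -0.53 in T cells without Tgtp1 and Tgtp2, and -2.78 in myeloid cells as a mean over cells, where T over myeloid in WT was 0.17. In plasma cells it was -1.04 with a total without immunoglobulin, ribosomal protein and mitochondrial genes and -1.01 with the median of all genes set to 0. T over myeloid in WT was 0.22 with that total and 0.091 without the 5% of cells with most UMIs. In dendritic cells the log2 ratio of the share of positive cells went from -1.84 to -3.71 when thinned to 1000 UMIs. That value rests on 2 positive cells of 200 in Ring1AKO, against 9 of 198 at 2000 UMIs. Where no cause is named, the cause was not tested. The other 112 values of these results moved by less than counting error. NK cells and neutrophils held few cells, so differences smaller than their intervals were not detectable at this depth.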
